A study of Mus musculus with 6 samples.

Results

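The ID genes and the feedback genes of TGF-beta and BMP signaling were examined in AML12 cells after hypoxia and reoxygenation (H/R). The members were 10 genes chosen by symbol, namely Id1, Id2, Id3, Id4, Smad3, Smad6, Smad7, Bambi, Skil and Tgfb1. Of these, 9 were among the 25330 genes of the deposited tables, and 8 were among the 14020 genes with enough counts for a test. Id4 had no row in the tables and was not analysed here, and Bambi had too few counts for a test. AML12 is a mouse hepatocyte line, established from a mouse transgenic for human TGF-alpha, a ligand of the EGF receptor that is unrelated to TGF-beta. All 6 RNA-seq libraries came from the wild-type line. The 3 control libraries were from cells kept at 21% oxygen and 5% CO2, for which the routine medium held 10% fetal bovine serum, an insulin, transferrin and selenium supplement, and 40 ng/ml dexamethasone. The 3 H/R libraries were from cells moved to medium without serum and glucose, kept at 1% oxygen for 6 h and reoxygenated for 2 h. Oxygen and medium therefore differed together between the groups, and their effects cannot be told apart. The labels do not say whether replicates were separate cultures, so the p-values measure the spread between these libraries, which may be technical.

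TGF-beta and BMP ligands bind paired type I and type II receptor kinases, which phosphorylate receptor-regulated SMADs (SMAD2 and SMAD3 for TGF-beta and activins, SMAD1, SMAD5 and SMAD9 for BMPs). These join SMAD4 and act in the nucleus. The pathway induces its own inhibitors. SMAD7 blocks both branches at the receptor, SMAD6 acts mainly on the BMP branch, BAMBI is a pseudoreceptor without a kinase, and SKIL (SnoN) is a nuclear corepressor of SMAD complexes. The ID genes are classic targets of the BMP branch. Their proteins have a helix-loop-helix but no DNA-binding region, and so hold E proteins away from DNA. In hepatocytes the BMP branch controls hepcidin and iron balance, and TGF-beta restrains growth and drives fibrosis.

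Among the members, Smad7 rose and Smad6 fell, each by more than 2-fold, so that the level of Smad7 relative to Smad6 within a library was higher in H/R than in control cells. Skil, Id1 and Smad3 rose by smaller amounts, and Id2 rose least. Id3 and Tgfb1 did not pass the test. Of the 8 tested members, 6 had an adjusted p under 0.05 (the quasi-likelihood F-test of edgeR, adjusted by Benjamini-Hochberg over the 14020 genes, as for every gene below), 5 of them higher and 1 lower. Over all genes tested the share was 62.8%, with 31.0% higher and 31.8% lower, so that such a p is common in these data. A fold change of at least 2 as well was reached by 2 of the 8 members, against 8.52% of all genes (4.25% higher, 4.27% lower). With a fold of at least 1.5 in its place, the count was 4 of the 8 (3 higher, 1 lower), against 24.4% of all genes (11.4% higher, 13.0% lower). On normalized counts, the groups did not overlap for 7 of the 8 (all but Tgfb1), against 65.9% of all genes. Each of the 8 had at least 10 counts in every library, and none shares exon sequence with another gene of the tables. The median log2 fold change was 0.39 over the 8 and -0.01 over all tested genes.

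**Figure D1:**
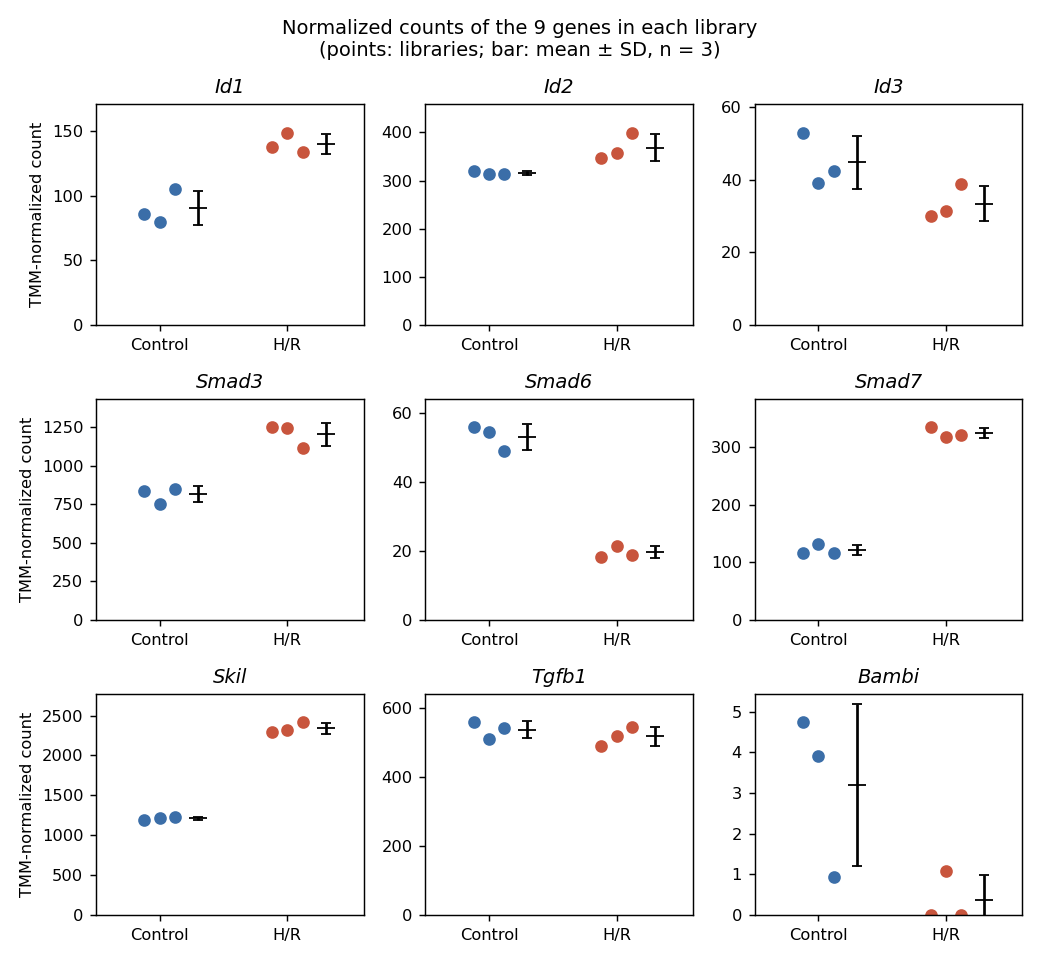
TMM-normalized counts of the 9 measured genes, 1 panel each with its own axis from 0. Points are the 3 control (blue) and 3 H/R (red) libraries, and the bar is the mean ± SD (n = 3). Smad7 sits between 116 and 132 in control and between 317 and 334 in H/R libraries, whereas Smad6 sits between 49.0 and 55.9 and between 18.3 and 21.6.

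Promoters of 6 members were found by symbol in the RefSeq table of GRCm38.p6, and in 4 of these (Id2, Smad3, Smad6 and Tgfb1) the annotated start site was the first base of the gene as counted. Smad6 and Smad3, with 195081 bases between them on chromosome 9, were picked after their values had been seen, as they moved in opposite directions. Id2 was picked as the ID gene with the highest level. The 250 bases before the start site are shown for these genes. They read 5′ to 3′ on the minus strand, and capitals mark ACGTG (the core of hypoxia response elements), GGGCGG (the GC box bound by SP and KLF factors) and GGCGCC (the GC-rich site of BMP-responsive SMAD complexes), on either strand.
Smad6, chr9:64022060-64022309: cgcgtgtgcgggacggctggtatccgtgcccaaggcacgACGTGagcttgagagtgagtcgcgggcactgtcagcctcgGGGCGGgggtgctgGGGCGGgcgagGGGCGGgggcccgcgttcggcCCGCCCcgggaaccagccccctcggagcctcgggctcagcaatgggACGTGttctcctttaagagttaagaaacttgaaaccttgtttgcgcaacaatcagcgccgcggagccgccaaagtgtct
Smad3, chr9:63757995-63758244: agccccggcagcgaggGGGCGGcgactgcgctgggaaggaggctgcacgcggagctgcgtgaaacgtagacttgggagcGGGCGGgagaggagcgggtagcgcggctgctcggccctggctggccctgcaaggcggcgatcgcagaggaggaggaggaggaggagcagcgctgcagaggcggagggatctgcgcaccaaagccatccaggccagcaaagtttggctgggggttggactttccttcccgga
Id2, chr12:25096093-25096342: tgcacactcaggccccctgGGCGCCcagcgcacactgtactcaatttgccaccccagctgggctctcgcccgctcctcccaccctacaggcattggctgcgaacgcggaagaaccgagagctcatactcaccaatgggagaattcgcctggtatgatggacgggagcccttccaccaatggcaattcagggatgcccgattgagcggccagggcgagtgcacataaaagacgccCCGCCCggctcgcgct
The window of Smad6 held ACGTG 2 times, starting at -211 and -79 from the start site, and the windows of Smad3, Id2 and Tgfb1 did not hold it. ACGTG was present in 16.6% of all 32851 promoter windows of the same length. GGGCGG occurred 4 times before Smad6, 2 times before Smad3, 1 time before Id2 and 5 times before Tgfb1, and in 32.7% of all windows. GGCGCC, present in 9.59% of all windows, was found before Id2 at -231 and in none of the other 3. The 5-letter SMAD-binding sequence CAGAC, present in 42.2% of all windows, was in none of the 4. The second hypoxia core GCGTG was found 2 times before Smad3, 1 time before Smad6 and 1 time before Tgfb1, and in 28.2% of all windows. The windows of Id3 and Id4, whose start sites were not the first base of a counted gene, lacked ACGTG. Id3 held CAGAC at -167 and -68 and GCGTG at -8, and Id4 held GGCGCC at -148. GGGCGG occurred 2 times before Id3 and 5 times before Id4. Neighboring GGGCGG and GGCGCC sites can share letters. These are matches of letters in a short window and say nothing of binding.

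Smad7 encodes the inhibitory SMAD that recruits ubiquitin ligases to the TGF-beta receptor and competes with receptor-regulated SMADs. The gene lies on chromosome 18 of GRCm38, 75367529 to 75395935, plus strand. It had 123, 135 and 124 counts in the control libraries (replicates 1 to 3, the order used throughout) and 310, 294 and 321 counts in the H/R libraries. All 3 H/R libraries were above all 3 control libraries, and the values within each group were close. After scaling by TMM factors, the count was 122 ± 8.70 in control and 324 ± 8.83 in H/R cells (SD, n = 3 each). Smad7 rose 2.66-fold, with a log2 fold change of 1.41 (SE 0.10, 95% confidence interval 1.21 to 1.62, adjusted p = 2.07e-14). Of the 14020 tested genes, 284 had a log2 fold change as high or higher, Smad7 included.

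Smad6 encodes the other inhibitory SMAD. It lies on chromosome 9, 63953076 to 64022059, minus strand. Its counts were 59, 56 and 52 in the control replicates and 17, 20 and 19 in the H/R replicates. Every H/R library held fewer counts than every control library. The normalized count was 53.1 ± 3.68 in control and 19.6 ± 1.72 in H/R cells (SD, n = 3 each). Smad6 was 2.70-fold lower after H/R (95% confidence interval 1.94 to 3.76), or -1.43 on the log2 scale (SE 0.23, adjusted p = 2.40e-06). The interval is wider than that of Smad7, and the counts behind it are fewer. The interval also includes changes a little under 2-fold.

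The inhibitory SMADs thus had opposite signs. In the same library, the RPKM of Smad7 was 1.48, 1.71 and 1.69 times that of Smad6 in the control libraries, and 12.9, 10.4 and 11.98 times in the H/R libraries. This ratio, chosen after the values had been seen, needs no scaling between libraries. Its mean was 1.63 ± 0.128 in control and 11.8 ± 1.27 in H/R cells (SD, n = 3 each), or 7.24 times as high, and the groups did not overlap (p = 0.1 by exact permutation, two-sided, where 3 against 3 libraries can give no smaller p).

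Smad3 encodes the SMAD that carries TGF-beta and activin signals to the nucleus. It is on chromosome 9, 63646767 to 63757994, on the same strand as Smad6, with 195081 bases between the genes. Smad3 had 883, 773 and 903 counts in control and 1158, 1155 and 1117 counts in H/R libraries. The groups did not overlap. The normalized count rose from 813 ± 52.0 to 1203 ± 75.2 (SD, n = 3 each), 1.48-fold or 0.56 on the log2 scale (SE 0.06, adjusted p = 2.56e-10). The 3 genes that the tables list between Smad3 and Smad6 had at most 9 counts in any library and were not tested. The ratio of Smad3 to Smad6 RPKM in a library was from 7.98 to 10.04 in control and from 33.4 to 39.4 in H/R cells. This ratio was also chosen after the values had been seen, for genes that had moved in opposite directions.

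Skil encodes SnoN, a corepressor that binds SMAD complexes and is itself induced by TGF-beta. It lies on chromosome 3, 31095058 to 31122577, plus strand. Skil had 1260, 1250 and 1302 counts in control and 2124, 2148 and 2416 counts in H/R libraries, with no overlap. Its normalized count went from 1213 ± 17.3 to 2340 ± 66.4 (SD, n = 3 each), so that its log2 fold change was 0.95 (SE 0.05, 95% confidence interval 0.85 to 1.04, adjusted p = 9.18e-19), or 1.93-fold, just under the 2-fold threshold. By p, Skil ranked 257 among the tested genes, the first of the members. Its paralog Ski, a corepressor of the same kind and named here after its value had been seen, had a log2 value of 0.20 for the change (adjusted p = 0.00173). The RPKM of Skil was 0.753 to 0.809 times that of Ski in the control libraries and 1.29 to 1.34 times in the H/R libraries.

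**Figure D2:**
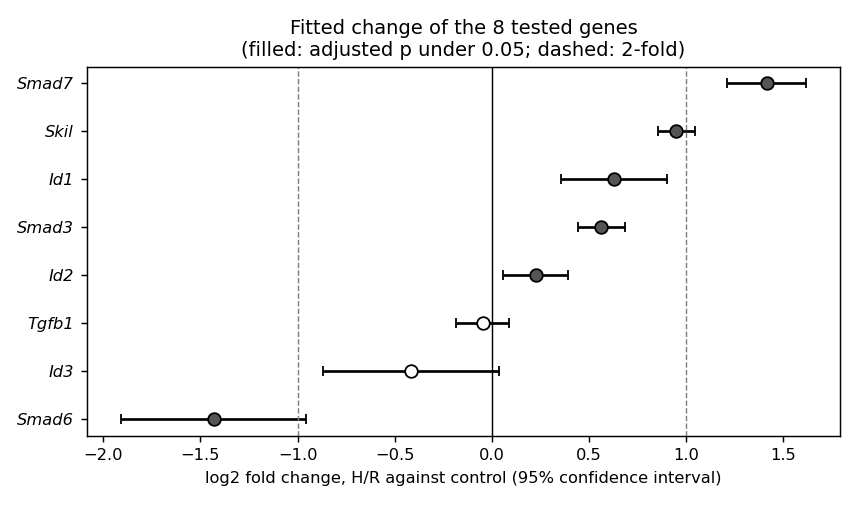
Fitted log2 fold changes (H/R against control) of the 8 tested genes with 95% confidence intervals from edgeR's quasi-likelihood fit on 3 libraries per group. Filled circles have an adjusted p under 0.05, and dashed lines mark 2-fold. Smad7 (1.41) and Smad6 (-1.43) lie beyond 2-fold on opposite sides, Skil (0.95) lies just inside, and the intervals of Tgfb1 and Id3 include 0.

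Of the 3 measured ID genes, Id1 and Id2 rose and Id3 did not pass the test. Id1, the member most often used as a readout of BMP signaling, is on chromosome 2, 152736251 to 152737410, plus strand. It had 91, 82 and 112 counts in control and 128, 138 and 134 counts in H/R libraries. The highest control library was below the lowest H/R library. The normalized count rose from 90.5 ± 13.3 to 140.2 ± 7.73 (SD, n = 3 each), a log2 fold change of 0.63 (SE 0.13, 95% confidence interval 0.35 to 0.90, adjusted p = 0.000131), or 1.55-fold.

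Id2 (chromosome 12, 25093801 to 25096092, minus strand) was the most abundant ID gene. It had 338, 321 and 333 counts in control and 323, 332 and 400 counts in H/R libraries. As raw counts the groups overlapped. As normalized counts they did not, and the means were 316 ± 3.91 in control and 369 ± 27.5 in H/R cells (SD, n = 3 each), with H/R replicate 3 the highest. The log2 fold change was 0.23 (SE 0.08, adjusted p = 0.0170), or 1.17-fold. This call depended on the scaling, on the test and on 1 library. Scaled by library totals alone, Id2 differed by 0.12 on the log2 scale (adjusted p = 0.215), and by 0.16 without H/R replicate 3 (adjusted p = 0.121). With DESeq2 the difference was 0.24 (adjusted p = 0.0663).

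Id3 (chromosome 4, 136143497 to 136145755, plus strand) had 56, 40 and 45 counts in control and 28, 29 and 39 counts in H/R libraries. On normalized counts the means were 44.8 ± 7.32 and 33.5 ± 4.80 (SD, n = 3 each), and the lowest control library, at 39.01, was next to the highest H/R library, at 38.97. The log2 fold change of -0.42 (SE 0.22, 95% confidence interval -0.87 to 0.04) was not past the threshold (adjusted p = 0.103). With library totals alone it was -0.52 (adjusted p = 0.0423).

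Within a library, Id2 made up most of the summed RPKM of the 3 measured ID genes, from 68.3% to 73.1% in control and from 65.9% to 69.6% in H/R cells. The share of Id1 was 20.4% to 25.2% in control and 25.5% to 30.0% in H/R cells, and that of Id3 was 6.46% to 8.32% and 4.08% to 4.81%. For Id1 and Id3 the groups did not overlap, and for Id2 they did. The ratios among the ID genes were also chosen after the values had been seen. The ratio of Id1 to Id3 RPKM was 2.51, 3.17 and 3.84 in the control libraries and 7.06, 7.35 and 5.30 in the H/R libraries, with p = 0.1 by exact permutation. Id1 and Id3 had fitted changes of opposite sign, so a difference in this ratio follows in part from the choice of genes. The ratio of Id1 to Id2 RPKM overlapped between groups (0.280 to 0.368 and 0.367 to 0.455; p = 0.2 by exact permutation).

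**Figure D3:**
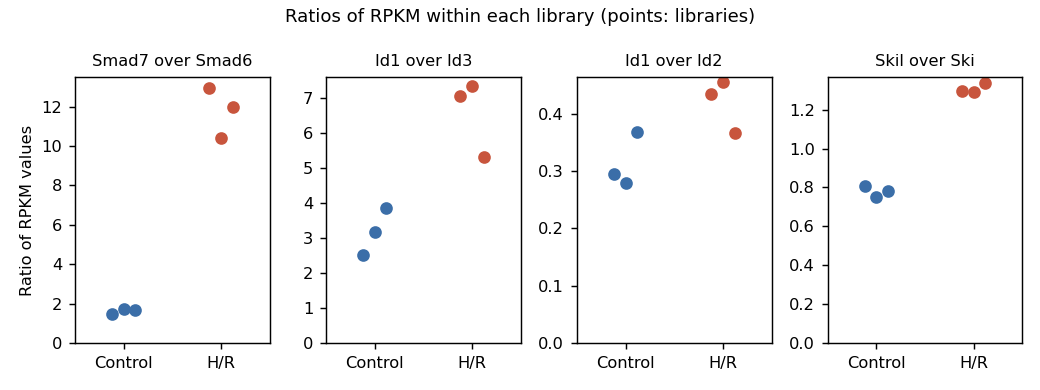
Ratios of RPKM values within each library (points, 3 control in blue and 3 H/R in red, each axis from 0), which do not depend on scaling between libraries. The ratios were chosen after the values had been seen. Smad7 over Smad6 is between 1.48 and 1.71 in control and between 10.4 and 12.9 in H/R libraries, and the groups overlap only for Id1 over Id2.

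Tgfb1, the ligand of the list, is on chromosome 7, 25687002 to 25705077, plus strand. It had 589, 522 and 574 counts in control and 455, 481 and 545 counts in H/R libraries. On normalized counts the groups overlapped, with means of 536 ± 24.6 and 518 ± 27.3 (SD, n = 3 each). The log2 fold change was -0.05 (SE 0.07, 95% confidence interval -0.19 to 0.09, adjusted p = 0.552), an interval that does not reach 2-fold in either direction.

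Bambi (chromosome 18, 3507957 to 3516404, plus strand) was near the limit of detection, with 5, 4 and 1 counts in control and 0, 1 and 0 counts in H/R libraries. The groups overlapped. Over the groups this was 10 counts against 1, a ratio of 9.77 relative to library totals with an exact 95% interval of 1.39 to 424 that covers counting error only.

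Compared per length, as RPKM, the order of the levels in control cells was Id2 (12.2 ± 0.140), Smad3 (7.19 ± 0.512), Skil (6.13 ± 0.176), Tgfb1 (5.20 ± 0.242), Id1 (3.83 ± 0.619), Smad7 (1.32 ± 0.0916), Id3 (1.22 ± 0.188), Smad6 (0.811 ± 0.0440) and Bambi (0.0308 ± 0.0190), as mean RPKM ± SD with n = 3. The library values of Smad7 and Id3 overlapped, and those of the other neighbors in this order did not. In H/R cells the order was Id2 (13.2 ± 1.11), Skil (10.99 ± 0.415), Smad3 (9.88 ± 0.530), Id1 (5.50 ± 0.277), Tgfb1 (4.68 ± 0.288), Smad7 (3.26 ± 0.0795), Id3 (0.852 ± 0.131), Smad6 (0.279 ± 0.0240) and Bambi (0.00324 ± 0.00560), and no neighbors overlapped. Skil passed Smad3 and Id1 passed Tgfb1 in this order.

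**Figure D4:**
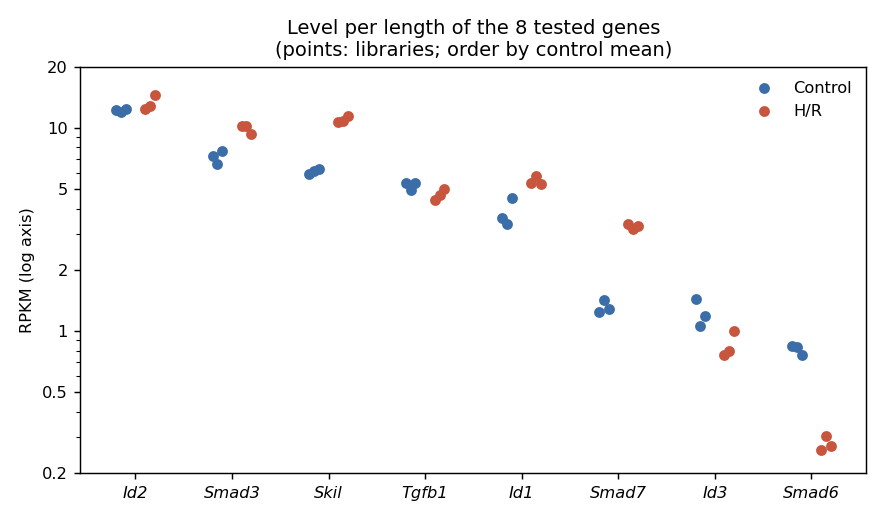
RPKM of the 8 tested genes in each library (log axis), ordered by their control mean, with control libraries in blue and H/R libraries in red. Smad7 and Id3 share a range in control libraries and are apart in H/R libraries, where the means are 3.26 and 0.852.

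Among all tested genes, those whose profile over the 6 libraries was closest to that of Smad7, by Euclidean distance of log2 CPM from the control mean, were Fermt2 (distance 0.133, log2 fold change 1.44) and Dusp4 (distance 0.133, log2 fold change 1.46). Fermt2 encodes kindlin-2, an activator of integrins, and Dusp4 a MAPK phosphatase. Those closest to Smad6 were Vsig10 (distance 0.131, log2 fold change -1.38) and Nap1l3 (distance 0.139, log2 fold change -1.50). The distance includes the difference between the groups, on which Smad7 and Smad6 had been singled out. A fraction of 0.0305 of the exon length of Vsig10 is shared with another gene.

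The other genes of the pathway were taken from 9 lists, with 118 genes in all, of which 76 could be tested. An adjusted p under 0.05 was found for 59 of the 76 (48 higher and 11 lower), or 77.6%, against 62.8% of all tested genes (31.0% higher and 31.8% lower). Of the 76, 16 were also past 2-fold (11 higher and 5 lower), against 8.52% of all tested genes. The counts of the single lists stand beside the same shares, were not tested against them and are given as a description. The median log2 fold change of the 76 was 0.38. Of the 76, 46 share no exon sequence with another gene, and 36 of those had an adjusted p under 0.05 (29 higher and 7 lower). Of the genes named below, Tgfb3, Bmp4, Bmp8b, Tgfbr3, Bmpr1a, Smad5, Usp15, Ltbp3, Thbs1, Itgav, Furin, Junb, Col4a1, Gata6 and Bhlhe40 share a fraction of 0.00295 to 0.0752 of their exon length with another gene and are uncertain to that extent.

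**Figure D5:**
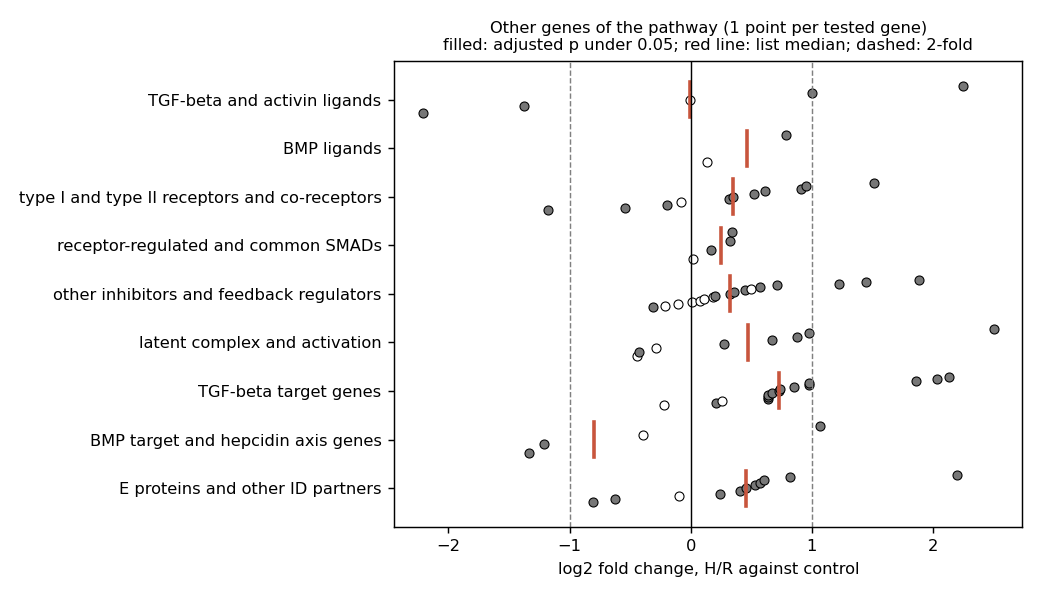
Log2 fold changes (H/R against control) of the tested genes of the 9 pathway lists, 1 point per gene, on 3 libraries per group. Filled points have an adjusted p under 0.05, red lines are list medians and dashed lines mark 2-fold. The list of TGF-beta target genes (15 tested) has its median at 0.73 with no gene past the test on the lower side. The BMP target and hepcidin list has its median at -0.80 over only 4 tested genes, of which 1 rose and 2 fell.

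Of the other TGF-beta and activin ligands, 5 of 9 could be tested, and 2 rose and 2 fell. Inhba, the subunit of activin A, had 83, 70 and 54 counts in control and 300, 279 and 315 counts in H/R libraries, or 2.25 higher on the log2 scale (adjusted p = 1.96e-17). Inhbb, the subunit of activin B and the most abundant ligand of the list, had a log2 fold change of 0.998. Gdf11, an activin-like ligand, went the other way. It had 626, 672 and 630 counts in control and 126, 117 and 135 counts in H/R libraries, and was 4.63-fold lower (log2 fold change -2.21, adjusted p = 1.88e-21). Tgfb3 was 2.59-fold lower on 27 to 33 counts in control libraries and 9 to 12 in H/R libraries. Of 13 BMP ligands, 2 could be tested. Bmp4 rose, with a log2 fold change of 0.78 (adjusted p = 6.69e-08), and Bmp8b did not pass the test (0.14).

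Of 16 receptors and co-receptors, 11 could be tested, and 7 rose and 3 fell. Tgfbr1, the type I receptor for TGF-beta and a site of SMAD7 action, had 1172, 1352 and 1235 counts in control and 518, 421 and 572 counts in H/R libraries. It was 2.26-fold lower (log2 fold change -1.18, adjusted p = 9.74e-10). Its partner Tgfbr2 rose by 0.32 on the log2 scale (adjusted p = 5.71e-07) and was the most abundant receptor gene per length. Tgfbr3, the co-receptor betaglycan, rose 2.86-fold from 28 to 45 counts in control libraries to 80 to 111 in H/R libraries. Of 5 other SMADs, 4 were tested and 3 rose, none by 2-fold. The log2 fold change was 0.34 for Smad4 and 0.17 for Smad2, the most abundant per length, and for the BMP-branch SMADs, named after their values had been seen, it was 0.33 for Smad1 and 0.02 for Smad5. The call of Smad2 was lost with library totals alone (0.07, adjusted p = 0.265).

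Of 23 other inhibitors and feedback regulators, 17 were tested, 9 rose and 1 fell. The 3 past 2-fold were Tgif1, a homeodomain corepressor of SMADs (log2 fold change 1.89, from 286 ± 24.0 to 1058 ± 26.8 normalized counts), Nedd4l (1.44, from 1860.1 ± 13.8 to 5059 ± 107) and Smurf1 (1.22, from 1955 ± 89.2 to 4560.1 ± 30.5), with SD and n = 3 throughout. Nedd4l and Smurf1 encode ubiquitin ligases, and SMURF1 works with SMAD7 at the receptor. Ppm1a, a phosphatase for receptor-regulated SMADs, with 29.3 RPKM in control and 27.5 in H/R cells, did not pass the test (0.01 on the log2 scale). Usp15, a deubiquitinase of the receptor complex, had a log2 fold change of 0.36. The gene that fell was Pmepa1 (-0.31), an inhibitor induced by TGF-beta, named after its value had been seen.

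In the list on the latent complex and its activation, 8 of 11 genes were tested, 5 rose and 1 fell. Thbs1 (thrombospondin 1, an activator of latent TGF-beta) had 36, 55 and 42 counts in control and 218, 231 and 238 counts in H/R libraries, a 5.67-fold rise (adjusted p = 4.25e-17). Itgav, the alpha subunit of the integrins that release TGF-beta, had a log2 fold change of 0.88 and Ltbp3, a latent TGF-beta binding protein, of 0.28. The call of Ltbp3 was lost on log2(RPKM + 1), with 0.16 (adjusted p = 0.0606).

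Of 19 TGF-beta target genes, 15 were tested, 13 rose and none fell, where 31.0% of all tested genes were higher and 31.8% lower at the same threshold. The largest changes were in Ctgf (log2 fold change 2.13), Junb (2.03) and Myc (1.86). Ctgf encodes connective tissue growth factor, Junb an AP-1 subunit and Myc a growth regulator that TGF-beta is known to repress in epithelial cells. All 3 also respond to many other stimuli. Of the exon length of Ctgf, a fraction of 0.232 overlaps another gene, and its value is uncertain to that extent. Col4a1, which encodes a collagen of the basement membrane and was the most abundant of the list per length, had a log2 fold change of 0.21.

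Of 14 genes of the BMP target and hepcidin list, 4 were tested, 1 rose and 2 fell. Atoh8, a helix-loop-helix factor induced by BMP in hepatocytes, had 24, 13 and 19 counts in control and 10, 1 and 9 counts in H/R libraries. Its log2 fold change was -1.33 (adjusted p = 0.00928). It was -0.85 in the fit lacking H/R replicate 2 (adjusted p = 0.0874) and -1.12 in that lacking control replicate 1 (adjusted p = 0.0587), and its adjusted p was 0.0711 with DESeq2. Hey1, a target of BMP and Notch signaling, had 24, 40 and 33 counts in control and 10, 14 and 14 counts in H/R libraries (log2 fold change -1.21). Gata6 had a log2 fold change of 1.07 on 32 to 38 counts in control and 51 to 86 in H/R libraries. Hfe, which takes part in hepcidin control, did not pass the test (-0.39, adjusted p = 0.0737). It passed with library totals alone (-0.50, adjusted p = 0.0244) and was -0.22 without control replicate 1 (adjusted p = 0.392). Hamp, the gene of hepcidin, had 7 counts in control replicate 1 and 0 in each of the other 5 libraries. Control replicate 1 also held other adult liver transcripts, such as Fgb (52 counts, at most 1 elsewhere). Whether its Hamp counts came from the AML12 cells was not tested.

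Among the partners of ID proteins, the E proteins differed in sign. Tcf3, the E protein with the highest RPKM in both groups, fell from 1658 ± 44.2 to 1075 ± 17.9 normalized counts (SD, n = 3 each; log2 fold change -0.63, adjusted p = 2.63e-13). Tcf12 rose, with a log2 fold change of 0.53 (adjusted p = 5.27e-12), and so did Tcf4, with 0.41 (adjusted p = 9.03e-05), a call that was lost on log2(RPKM + 1), with 0.10 (adjusted p = 0.0739). The whole list of 11 genes was tested, and 8 rose and 2 fell. Bhlhe41, a helix-loop-helix repressor of the clock, had the largest change (log2 fold change 2.20), with a fraction of 0.190 of its exon length shared with another gene. Bhlhe40 (0.61) and the ETS factor Ets2 (0.46) were the most abundant of the list per length.

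Total counts lay between 20438746 and 21854790 per library. The hepatocyte regulator Hnf4a had 2035 to 3209 counts and Krt18 31633 to 50862, whereas the plasma protein gene Alb had 132 to 542 counts in control and 31 to 43 in H/R libraries. Markers of endothelial cells had at most 4 counts in any library. Of the stellate cell and fibroblast list, the summed level was 0.686 to 1.57 CPM (counts scaled to library totals) in control and 0.685 to 1.29 in H/R libraries. The macrophage and blood list was higher in H/R libraries (8.51 to 10.3 CPM against 3.10 to 3.57), through Cd68 and Csf1r, while Ptprc, Adgre1 and Clec4f had at most 3 counts in any library. The cholangiocyte and progenitor list was also higher (2573 to 2669 against 1523 to 1713), through Krt19, Krt7 and Sox9, while its members Spp1 and Afp had log2 fold changes of -0.57 and -2.03, and the part of these marker changes in the results was not tested. In bulk RNA, fewer cells of a type and less RNA per cell cannot be told apart. Control replicate 1 stood apart, with 400 counts over 8 adult liver genes against 41 to 63 in each other library. The 8 genes were listed as transcripts of that library, so the contrast follows from their choice. Apoh, 1 of the 8, was not higher there (56 counts against 38 to 61). Without control replicate 1, the log2 fold change was 1.38 for Smad7, -1.39 for Smad6, 0.94 for Skil, 0.58 for Smad3 and 0.59 for Id1. Each had an adjusted p under 0.05.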

How the data were processed

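Counts per gene and RPKM values of 6 libraries (3 control, 3 H/R) were used. Per the labels and the paper, paired-end reads of a stranded mRNA kit were mapped to GRCm38 (aligner given as STRA 2.5.3a). The submitters' processing notes also name Trimmomatic 0.36, featureCounts, Subread 1.5.1 and edgeR 3.12.1. The annotation and the strand setting of the counting are not given in the sources used here. The deposited counts are raw whole numbers per gene. The authors' RPKM values follow from count, gene length and library total (largest relative error 1.13e-06).

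The deposited counts went into edgeR 4.0.16 (R 4.3.3) with filterByExpr, TMM scaling and the robust quasi-likelihood F-test, adjusted by Benjamini-Hochberg over 14020 genes. The steps were tested on simulated data. A gene was past both thresholds with an adjusted p under 0.05 and a fold change of at least 2, as in the paper. Normalized counts are counts divided by the effective library size, times its mean. Standard errors and intervals come from the F statistic. Exact permutation tests were two-sided. Counts of 3 or fewer were treated as the floor. The members and gene lists were chosen with earlier results of these data known. Named are the members, up to 4 list genes past both thresholds with the largest change, the 2 most abundant per list, the E proteins, and the 2 genes nearest in profile to each member past both thresholds, besides genes marked as chosen later and Pmepa1, Hamp and cell markers. The result of 1 list gene is not reported here. Alternatives were DESeq2 1.42.0, upper quartile scaling, library totals, no filter, at least 10 counts in every library, limma-trend (limma 3.58.1) on log2(RPKM + 1) and log2(RPKM + 0.1), a replicate block, a fold threshold of 1.5 and leaving out each library.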

Additional observations from a re-analysis of the deposited data

How the results depend on the processing

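Smad7, Smad6, Skil, Smad3 and Id1 kept their direction and an adjusted p under 0.05 in 14 of 14 alternatives each, with log2 fold changes from 0.88 to 1.47, -1.54 to -0.50, 0.75 to 0.96, 0.41 to 0.62 and 0.44 to 0.75. The extremes nearest 0 came from log2(RPKM + 1), where 0 of the members were past both thresholds. There the pseudocount shrinks genes of low level, and RPKM is scaled by library totals without TMM. For library totals alone, log2(RPKM + 0.1) and log2(RPKM + 1), the log2 fold change was 0.46, 0.45 and 0.41 for Smad3. For Skil it was 0.84, 0.83 and 0.75. Tgfb1 stayed between -0.15 and -0.01 and did not pass. Id2 lost its call with DESeq2 (0.24), upper quartile scaling (0.15), library totals (0.12), log2(RPKM + 1) (0.11) and log2(RPKM + 0.1) (0.12), and lay between 0.16 and 0.27 when 1 library was dropped. Id3 passed with library totals (-0.52), log2(RPKM + 1) (-0.26) and log2(RPKM + 0.1) (-0.48), and lay between -0.54 and -0.28 when 1 library was dropped. Library totals moved the median of all tested genes from -0.01 to -0.12, and upper quartile scaling to -0.08; the cause of the changes in call was not tested beyond this. A fold threshold of 1.5 gave 4 members (3 higher, 1 lower) and 37 pathway genes (30 higher, 7 lower), by construction, against 24.4% of all tested genes. Leaving out genes that share exon sequence, an alternative chosen after seeing the data, left 46 pathway genes, of which 9 were past both thresholds (5 higher, 4 lower) and 36 had an adjusted p under 0.05. Ppm1a changed sign, being -0.0593 under upper quartile scaling and -0.0934 under library totals. On log2(RPKM + 1) and log2(RPKM + 0.1) it was -0.0892 and -0.0920, and leaving out 1 library gave -0.0366 to 0.0542 (below 0 lacking control replicate 3 or H/R replicate 1, the latter -0.00935). Bmp8b was -0.00748 without control replicate 1. Hfe passed with upper quartile scaling (-0.46), library totals (-0.50), both RPKM fits (-0.21 and -0.43) and without control replicate 3 (-0.49). Both RPKM fits lost the calls of Smad2 (0.06 and 0.07), Tcf4 (0.10 and 0.26) and Ltbp3 (0.16 and 0.17), and upper quartile scaling that of Smad2 (0.10).

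Replicate numbers are not said to pair libraries. Deviations from the group means correlated by only -0.03, 0.00 and -0.01 between libraries sharing a number. These values include counting noise and cannot exclude a pairing by replicate number. With the number as a block, 2 members were past both thresholds and 6 had an adjusted p under 0.05, and 16 and 59 of the pathway genes, as without it. The log2 fold change with the block was 1.41 for Smad7 and -1.43 for Smad6. Depth limits Bambi, with at most 5 counts in any library, and Smad6, whose H/R libraries held 17 to 20 counts.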

Other observations

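The genes given here, from the lists of receptors, inhibitors, the latent complex and TGF-beta targets, did not reach 2-fold and were chosen after their values had been seen. Acvr1b, the type I receptor for activin, had 312 to 376 counts in control and 538 to 652 counts in H/R libraries (log2 fold change 0.91, adjusted p = 1.92e-12, quasi-likelihood F-test of edgeR). Acvr1, a type I receptor for BMPs, had a log2 fold change of 0.61 and Bmpr1a of 0.35, while the type II receptor Bmpr2 fell by 0.20 on the log2 scale (adjusted p = 0.00687). Rnf111, a ubiquitin ligase that targets SKIL and SMAD7 for degradation, had a log2 fold change of 0.45 and Tob1, an antiproliferative regulator of SMADs, of 0.72. Ltbp1, which anchors latent TGF-beta in the matrix, had 1209 to 1423 counts in control and 2186 to 2557 counts in H/R libraries (log2 fold change 0.98), and Furin, the protease that processes TGF-beta precursors, fell by 0.43 on the log2 scale. Cdkn1a (0.98) and Cdkn2b (0.64), cell cycle inhibitors that TGF-beta is known to induce, rose.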
